A study of Mus musculus with 24 samples.

Results

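*Klf3*, *Klf9*, *Klf10*, *Klf13* and *Klf15* encode 5 Krüppel-like factors (KLFs), and their mRNA was followed through the circadian day in livers of 2 genotypes. In the mutant the paper found, by quantitative RT-PCR, that the mRNA rhythm of the clock gene *Bmal1* was abolished. The members were chosen by gene symbol in the deposited expression tables, and all 5 symbols were found once among the 54733 genes of each table. The 24 liver libraries came from adult male C57BL/6 mice in constant darkness, 12 from wild-type (WT) mice and 12 from ΔRRE mice. ΔRRE mice were homozygous for a CRISPR deletion of both RREs of *Bmal1* (*Arntl* in the tables) in every cell of the body. An RRE is the element through which the RORs activate and the REV-ERBs repress a gene. The livers were taken at 6 circadian times (CT2, CT6, CT10, CT14, CT18 and CT22), with 2 livers per genotype and time. The ages of the livers sequenced were not given one by one, only as a range of adult ages for the tissues collected. The unit is FPKM, the number of fragments scaled by transcript length and by the fragments mapped, so levels can be compared between genes, but the read depth behind a value is unknown.

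KLFs bind CACCC and GC boxes in promoters through 3 zinc fingers at the end of the protein and share these sites with the related SP factors. KLF9, KLF10 and KLF13 recruit the SIN3A co-repressor, KLF3 recruits the CTBP co-repressors, and KLF15 mainly activates genes. In the liver KLF15 is known for the control of amino acid breakdown and gluconeogenesis, KLF10 responds to glucose and TGF-β, and KLF9 is induced by glucocorticoids. Several KLF genes are known outputs of the clock, which acts on them through E-boxes, the elements bound by CLOCK and BMAL1.

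Markers of liver were present in the labelled tissue. All 6 hepatocyte markers were above 0 in every library, and their summed level ran from 33740 to 50640 FPKM in WT and from 32620 to 46440 FPKM in ΔRRE. The endothelial markers summed to between 9.18 and 21.8 FPKM, the Kupffer cell markers to between 8.22 and 42.3 FPKM, the stellate cell markers to between 26.9 and 73.4 FPKM and the cholangiocyte markers to between 2.31 and 8.79 FPKM over both genotypes. Of the pancreas markers, 4 of 5 were at 0 in every library. The 5 erythroid markers summed to a median of 842 FPKM in WT and 1226 FPKM in ΔRRE. This sum stood apart in 2 ΔRRE livers. It was 4451 FPKM in replicate 1 at CT14 and 4322 FPKM in replicate 1 at CT10, against 2062 FPKM in the next. Most of the sum was globin mRNA. The marker that is not a globin, *Alas2*, had a mean of 46.55 FPKM in WT and 48.68 FPKM in ΔRRE. Its highest livers were at 58.57 and 58.76 FPKM. Below, the livers highest in erythroid markers are those 2, by the sum. The part of these other cells in the levels below was not tested, and in whole liver fewer cells of a type cannot be told apart from less RNA per cell. *Arntl*, the gene that lost its RREs, ranged from 0.0919 to 13.2 FPKM in WT and from 2.096 to 4.21 FPKM in ΔRRE. Its wave was 2.57 ± 0.31 (amplitude ± SE, log2) in WT and 0.29 ± 0.09 in ΔRRE. This was the only difference in rhythm that passed the adjustment over all genes (limma adjusted p = 0.0463). In ΔRRE alone the *Arntl* wave was not called (limma adjusted p = 0.156). It met the looser criteria of the study there, described below, as did 35.4% of genes.

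The genes lie on 5 chromosomes of the mouse genome (GRCm38, GENCODE M21). *Klf3* is at chr5:64803388-64832901 on the plus strand, *Klf15* at chr6:90462576-90475238 on the plus strand, *Klf13* at chr7:63886351-63938915 on the minus strand, *Klf10* at chr15:38291463-38300706 on the minus strand and *Klf9* at chr19:23141226-23168134 on the plus strand. RefSeq promoters (GRCm38.p6) were matched for 4 of the 5, and the 250 bases before the start of 3 of them are printed because these genes had the highest expression, the clearest wave and the earliest fitted peak. The capitals mark the E-box CACGTG, the CACCC box and the GC box GGGCGG on either strand, and the last pair share a base where they touch in *Klf13*.
*Klf15* promoter, chr6:90462326-90462575, plus strand: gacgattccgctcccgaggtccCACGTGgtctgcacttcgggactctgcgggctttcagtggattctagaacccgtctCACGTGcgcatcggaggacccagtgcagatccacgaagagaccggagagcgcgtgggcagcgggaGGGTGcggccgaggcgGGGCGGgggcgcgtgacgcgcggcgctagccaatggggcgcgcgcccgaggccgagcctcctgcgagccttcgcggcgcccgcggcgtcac
*Klf13* promoter, chr7:63938916-63939165, minus strand: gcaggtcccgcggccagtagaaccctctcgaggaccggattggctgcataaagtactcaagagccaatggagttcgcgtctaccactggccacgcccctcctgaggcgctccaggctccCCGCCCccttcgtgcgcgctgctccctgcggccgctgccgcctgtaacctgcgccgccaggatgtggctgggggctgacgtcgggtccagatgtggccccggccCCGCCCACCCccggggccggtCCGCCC
*Klf9* promoter, chr19:23140976-23141225, plus strand: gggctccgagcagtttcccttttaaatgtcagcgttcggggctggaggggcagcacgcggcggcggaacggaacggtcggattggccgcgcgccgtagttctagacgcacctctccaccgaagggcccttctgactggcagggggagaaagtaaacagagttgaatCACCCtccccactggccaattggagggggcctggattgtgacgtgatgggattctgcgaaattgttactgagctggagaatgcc

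The *Klf15* promoter held 2 E-boxes, which begin 228 and 172 bases before the start. At least 2 were found in 0.429% of the 32851 RefSeq promoters of this length, and at least 1 in 6.02%. A further CACGTG lies across the *Klf15* start itself, with 3 bases on each side of it, and 0.0883% of the windows of 300 bases (with the 50 bases after the start) held as many as 3. No CACGTG, E′-box (CACGTT) or D-box (TTATGTAA) was found in the same stretch of *Klf9*, *Klf13* or *Klf3*, and no AGGTCA, a form of the RRE core, in any of the 4. The RRE consensus in the paper also allows GGGTCA, which was not counted over all promoters. Those letters are in the *Klf3* stretch on the opposite strand. CACGTT was in 3.85% of all promoters, TTATGTAA in 0.819% and AGGTCA in 14.0%. AGAACA, one arm of the glucocorticoid receptor's element, was also in none of the 4 and in 16.1% of all promoters, and TATAAA was in none of the 4 and in 12.4% of all. The binding sites of the KLFs themselves were more varied. *Klf3* had 6 GC boxes and 5 CACCC boxes, *Klf13* had 3 and 1, *Klf15* had 1 and 1, and *Klf9* had 0 and 1. A GC box was in 32.7% and a CACCC box in 52.0% of all promoters. At least 6 GC boxes were in 0.886%, at least 3 in 8.47%, and at least 5 CACCC boxes in 0.667%. CCAAT, looked for after the sequences had been read, was found 3 times in *Klf9*, of which 2 overlap, 2 times in *Klf13*, once in *Klf15* and not in *Klf3*. It was found at least once in 33.8% of all promoters, at least 2 times in 10.1% and at least 3 times in 2.79%. The G and C content was 78.4% for *Klf3*, 72.0% for *Klf15*, 71.6% for *Klf13* and 59.6% for *Klf9*, against a median of 52.4%. These are matches of letters in a short window.

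The 5 genes spanned a wide range of expression. *Klf15* was the highest, with a mean of 62.6 ± 13.1 FPKM (SD over the 24 livers), followed by *Klf9* at 21.1 ± 8.19, *Klf3* at 13.1 ± 2.44, *Klf13* at 6.40 ± 3.21 and *Klf10* at 3.58 ± 2.1 FPKM. *Klf15* exceeded *Klf9* in 24 of 24 livers, by a median of 2.95-fold. The order of the others changed with the time of day. *Klf9* was above *Klf3* in 19 of 24 livers, and the 5 exceptions were all at CT14 or CT18. *Klf3* was above *Klf13* in 22 of 24 livers, and both exceptions were the WT livers at CT10. *Klf13* was above *Klf10* in 22 of 24 livers, with 1 exception in each genotype at CT6.

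**Figure D1:**
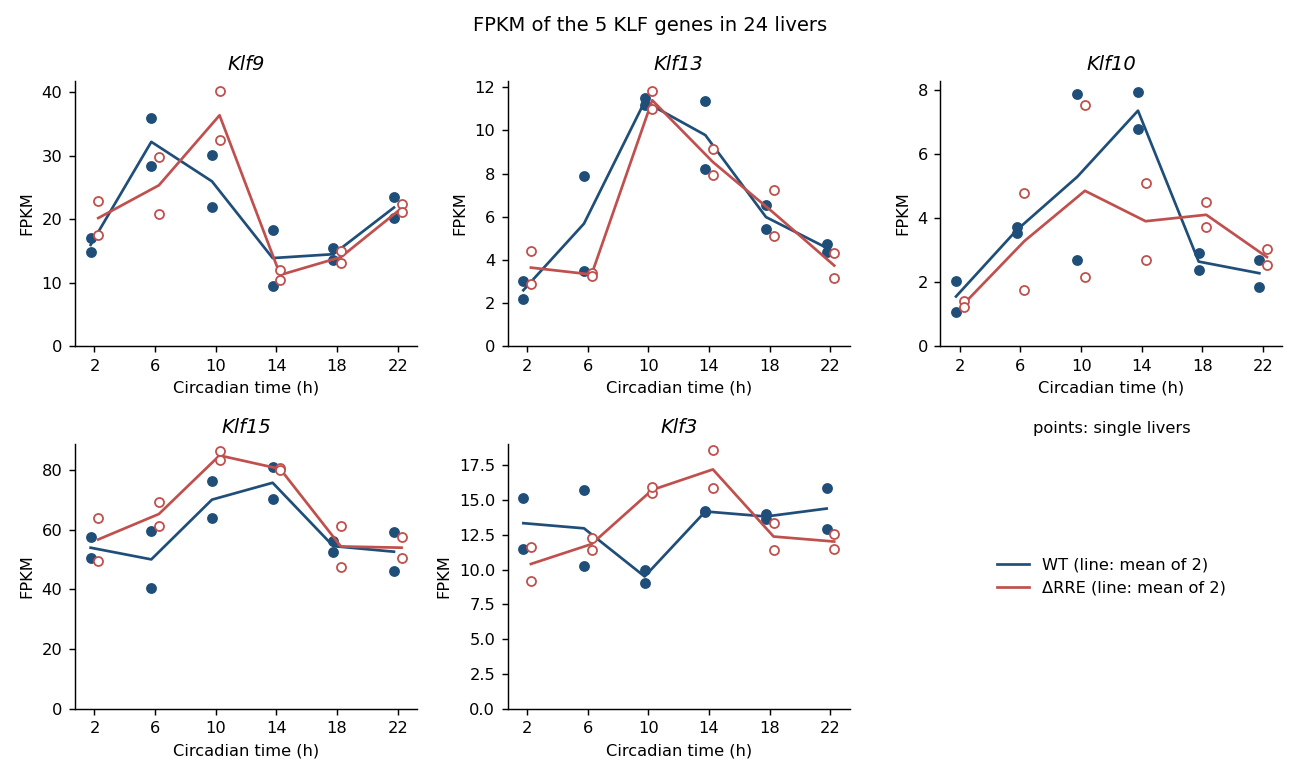
FPKM (vertical axis, from 0) against circadian time in hours (horizontal axis) for each of the 5 genes, with every liver as a point, WT filled and ΔRRE open, and lines through the means of 2. *Klf13* had its highest mean at CT10 in both genotypes (11.3 and 11.4 FPKM), *Klf9* was high at CT6 and CT10, and *Klf3* at CT10 was 9.50 FPKM in WT and 15.7 FPKM in ΔRRE.

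*Klf13* had the clearest rhythm of the 5. KLF13 is a repressor through SIN3A that also activates chemokine genes in T cells. In WT its levels in the 2 livers of each time were 2.18 and 3.0 FPKM at CT2, 7.88 and 3.48 at CT6, 11.5 and 11.2 at CT10, 8.19 and 11.4 at CT14, 5.42 and 6.55 at CT18, and 4.38 and 4.73 at CT22. In ΔRRE they were 4.41 and 2.87 FPKM at CT2, 3.40 and 3.24 at CT6, 11.8 and 11.0 at CT10, 9.15 and 7.92 at CT14, 5.11 and 7.25 at CT18, and 4.33 and 3.14 at CT22. All 8 livers at CT10 and CT14 were above the 16 livers of the other times, whatever the genotype, though the share of all genes with such a gap was not counted. The mean at the peak was 4.38-fold that at the trough in WT and 3.43-fold in ΔRRE. A cosine wave of 24 h fitted with limma had an amplitude, from its mean to its peak on the log2(FPKM + 0.1) scale, of 0.93 ± 0.15 (SE) in WT and 0.85 ± 0.15 in ΔRRE, with adjusted p = 0.00603 and 0.0159. Its peak was at CT12.6 ± 0.6 h in WT and CT13.0 ± 0.7 h in ΔRRE. *Klf13* was the only member called in both genotypes, and it was called with any 1 library left out, at adjusted p of at most 0.0202 in WT and 0.0409 in ΔRRE.

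*Klf10* had a wave of similar size with much more spread between livers. KLF10 is an early response gene of TGF-β. In WT its levels were 2.05 and 1.06 FPKM at CT2, 3.72 and 3.53 at CT6, 7.89 and 2.70 at CT10, 6.78 and 7.94 at CT14, 2.91 and 2.38 at CT18, and 1.86 and 2.70 at CT22. In ΔRRE they were 1.41 and 1.22 FPKM at CT2, 4.79 and 1.77 at CT6, 7.54 and 2.17 at CT10, 2.70 and 5.11 at CT14, 4.5 and 3.71 at CT18, and 3.04 and 2.53 at CT22. The lowest liver of each genotype was at CT2, while at CT10 each genotype had 1 high and 1 low liver, 2.93-fold apart in WT and 3.47-fold in ΔRRE. The amplitude was 0.94 ± 0.20 in WT (adjusted p = 0.0233, peak at CT12.2 ± 0.8 h) and 0.65 ± 0.24 in ΔRRE (adjusted p = 0.228, CT13.9 ± 1.4 h). The waves of both genotypes did not differ beyond the spread (ΔRRE minus WT, -0.29 ± 0.33, exact permutation p = 0.427). The WT call was lost without any 1 of 4 WT livers: replicate 2 at CT2 (adjusted p = 0.0505), replicate 1 at CT10 (adjusted p = 0.0559), replicate 1 at CT14 (adjusted p = 0.0563) or replicate 2 at CT14 (adjusted p = 0.0650).

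*Klf15*, the most abundant member, had a shallow wave. In WT its levels were 57.5 and 50.3 FPKM at CT2, 59.6 and 40.4 at CT6, 63.8 and 76.2 at CT10, 80.9 and 70.4 at CT14, 52.6 and 56.3 at CT18, and 59.1 and 46.0 at CT22. In ΔRRE they were 49.5 and 63.8 FPKM at CT2, 61.2 and 69.2 at CT6, 86.4 and 83.2 at CT10, 80.7 and 79.9 at CT14, 61.1 and 47.6 at CT18, and 57.5 and 50.3 at CT22. In both genotypes the livers at CT10 and CT14 were the 4 highest of 12, though the share of all genes with such an order was not counted. The peak mean was 1.51-fold the trough mean in WT and 1.57-fold in ΔRRE. The amplitude was 0.27 ± 0.09 in WT (adjusted p = 0.140, peak at CT12.9 ± 1.3 h) and 0.36 ± 0.07 in ΔRRE (adjusted p = 0.0310, CT10.8 ± 0.8 h). The difference in amplitude, 0.09 ± 0.12, and that in peak time, -2.12 ± 1.46 h, were together within the spread (exact permutation p = 0.233). The ΔRRE call was lost without any 1 of 7 ΔRRE livers: at CT2 replicate 1 (adjusted p = 0.0586), at CT10 either replicate (adjusted p = 0.0811 and 0.0752), at CT14 either replicate (adjusted p = 0.0650 and 0.0613), at CT18 replicate 1 (adjusted p = 0.0544) and at CT22 replicate 2 (adjusted p = 0.0710). It was also lost with a free mean for each time point (adjusted p = 0.110) and without the 4 livers of CT10 (adjusted p = 0.186).

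*Klf9* had the earliest fitted peak, from a cosine wave that was not called, and its profile was not a simple wave. In WT its levels were 14.9 and 17.0 FPKM at CT2, 36.0 and 28.5 at CT6, 30.1 and 21.9 at CT10, 9.46 and 18.3 at CT14, 15.4 and 13.6 at CT18, and 20.1 and 23.6 at CT22. In ΔRRE they were 22.8 and 17.5 FPKM at CT2, 20.8 and 29.9 at CT6, 32.5 and 40.3 at CT10, 12.1 and 10.4 at CT14, 13.0 and 15.0 at CT18, and 22.3 and 21.1 at CT22. Levels fell steeply from CT10 to CT14, with no overlap of the livers in either genotype, and the 4 livers at CT22 were again above the 8 at CT14 and CT18. This fall and return were read off the profile, and the share of all genes with such gaps was not counted. The highest mean was at CT6 in WT and at CT10 in ΔRRE, the time of the highest ΔRRE mean of *Klf10*, *Klf13* and *Klf15* too, but the livers of those times overlapped in WT. The cosine wave had an amplitude of 0.46 ± 0.16 in WT (adjusted p = 0.163) and 0.54 ± 0.17 in ΔRRE (adjusted p = 0.168), with peaks at CT5.9 ± 1.3 h and CT5.8 ± 1.2 h. With each time point free to have its own mean, *Klf9* passed in ΔRRE (adjusted p = 0.0158) and over both genotypes together (adjusted p = 0.00340), though not in WT alone (adjusted p = 0.102).

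*Klf3* had the smallest wave of the members in each genotype by amplitude, with fitted peaks at different times in WT and ΔRRE. The whole waves did not differ between genotypes past the adjustment over all genes (limma adjusted p = 0.99993). By peak mean over trough mean *Klf3* was 1.51-fold in WT, like *Klf15*, and 1.65-fold in ΔRRE. In WT its levels were 11.5 and 15.1 FPKM at CT2, 15.7 and 10.2 at CT6, 9.94 and 9.06 at CT10, 14.2 and 14.1 at CT14, 14.0 and 13.6 at CT18, and 12.9 and 15.9 at CT22. In ΔRRE they were 9.18 and 11.6 FPKM at CT2, 12.2 and 11.4 at CT6, 15.5 and 16.0 at CT10, 15.8 and 18.6 at CT14, 13.4 and 11.4 at CT18, and 11.5 and 12.6 at CT22. CT10 held the 2 lowest WT livers and 2 of the 4 highest ΔRRE livers. The cosine wave had an amplitude of 0.21 ± 0.09 in WT (adjusted p = 0.304, peak at CT20.8 ± 1.7 h) and 0.33 ± 0.07 in ΔRRE (adjusted p = 0.0406, CT12.9 ± 0.8 h). The ΔRRE call was lost without any 1 of 9 ΔRRE livers, at adjusted p between 0.0532 and 0.101: both replicates at CT6, CT10 and CT14, and replicate 1 at CT2, CT18 and CT22. It was also lost on rescaling the libraries by the median of ratios (adjusted p = 0.0523), with a free mean for each time point (adjusted p = 0.117) and without the 4 livers of CT10 (adjusted p = 0.142).

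By an adjusted p under 0.05, 2 of the 5 members were rhythmic in WT, *Klf10* and *Klf13*, where 10.3% of the 11244 genes tested were. In ΔRRE 3 of 5 were, *Klf3*, *Klf13* and *Klf15*, where 4.57% of genes were. A joint test of the waves of both genotypes, which uses all 24 libraries, called 4 of 5 (18.7% of genes), with *Klf9* left out at adjusted p = 0.0673. The joint adjusted p was 1.67e-04 for *Klf13*, 0.00815 for *Klf15*, 0.0167 for *Klf10* and 0.0244 for *Klf3*. The joint calls of 2 genes turned on single livers. *Klf3* was no longer called without replicate 1 of ΔRRE at CT2 (adjusted p = 0.0634) or replicate 2 of ΔRRE at CT14 (adjusted p = 0.0640), and *Klf9* was called without replicate 1 of WT at CT2 (adjusted p = 0.0436). Without the 4 livers of CT10 the joint calls of *Klf3* (adjusted p = 0.151) and *Klf15* (adjusted p = 0.121) were lost. The looser criteria of the study, an unadjusted p under 0.3, a peak mean over 1.5 times the trough mean and a limit on the SD of the time points, were met by 5 of 5 members in each genotype, but also by 37.0% of genes in WT and 35.4% in ΔRRE. Those criteria were applied here with the p of the cosine wave. Without the filter on low genes, which adds genes to the adjustment, *Klf13* in WT was the only call left in a single genotype (adjusted p = 0.0440), with *Klf13* in ΔRRE at adjusted p = 0.0841, and the joint test called 3 of 5, with *Klf3* at adjusted p = 0.0515. Without the 2 ΔRRE livers highest in erythroid markers, 0 of 5 members were called in ΔRRE, with 10 libraries left and 1.56% of genes called. The adjusted p was then 0.0919 for *Klf13*, 0.153 for *Klf3* and 0.161 for *Klf15*. The joint test without them called 3 of 5: *Klf13* (adjusted p = 8.53e-04), *Klf10* (adjusted p = 0.0129) and *Klf15* (adjusted p = 0.0395), with *Klf3* at adjusted p = 0.0728. The share of all genes called by the joint test was not counted without the filter or without those 2 livers. The median amplitude of the 5 members was 0.46 in WT and 0.54 in ΔRRE, and that of all genes tested 0.20 and 0.19. The members were chosen with earlier results of these data known, which limits every comparison with all genes.

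**Figure D2:**
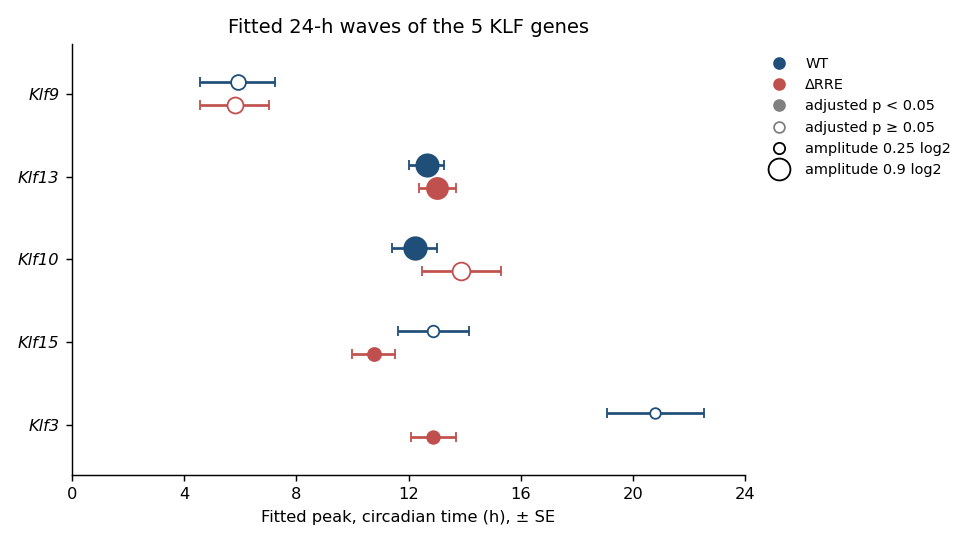
Fitted peak of the 24-h wave (horizontal axis, circadian time in hours, ± SE) for each gene in WT (blue) and ΔRRE (red). The size of a point gives the amplitude on the log2 scale and filled points passed an adjusted p under 0.05. The peaks of *Klf13* lie within 0.38 h of each other, and that of *Klf3* differs by -7.91 h (ΔRRE minus WT).

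The order of peak times, from 1 wave shared by both genotypes, began with *Klf9* at CT5.8 ± 0.9 h, whose wave missed the joint threshold. *Klf15* at CT11.7 ± 0.7 h, *Klf13* at CT12.8 ± 0.5 h and *Klf10* at CT12.9 ± 0.8 h followed some hours later, and these 3 differed from their neighbours by no more than the sum of their SEs. The shared wave of *Klf3* was small (0.15 ± 0.07, peak at CT15.5 ± 1.9 h), with the genotypes at different times. For reference, the shared peaks of the clock genes were at CT7.8 ± 0.2 h for *Nr1d1*, which encodes REV-ERBα, CT10.9 ± 0.3 h for *Dbp* and CT15.6 ± 0.3 h for *Per2*, with amplitudes of 2.93 ± 0.19, 3.39 ± 0.27 and 1.90 ± 0.13. The shared amplitude of *Klf13*, the largest of the members, was 0.89 ± 0.11.

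No member differed between WT and ΔRRE past the adjustment over all genes. For rhythm, 0 of 5 passed, where 0.00889% of genes did (1 gene, *Arntl*), and for the level over all times 0 of 5, where 0% did. Unadjusted, 1 of 5 members and 2.84% of genes had a limma p under 0.05 for rhythm, and 0 of 5 and 8.91% for level. At single times 0 of 5 members passed. The shares of genes were 0.00889% at CT2 and CT18, 0% at CT6 and CT22, 0.0178% at CT10 and 0.0267% at CT14. At an unadjusted limma p under 0.05 there was 1 member at CT6 and 1 at CT10, and 3.28% and 6.16% of genes.

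The 1 member with a difference in rhythm before adjustment was *Klf3*. Its fitted peaks lay apart (ΔRRE minus WT, -7.91 ± 1.80 h), but the WT wave was not called (limma adjusted p = 0.304). No test of peak time alone was made. The whole wave, amplitude and peak time together, gave an exact permutation p = 0.00609 for the difference. That test ran over the 23328 ways to divide the livers of each time into 2 and 2 (the smallest possible p is 4.29e-05). Over all genes the limma test of the same difference gave an adjusted p = 0.99993. At CT10 *Klf3* was higher in ΔRRE by 0.72 ± 0.19 on the log2 scale (adjusted p = 0.435). The 2 WT livers (9.94 and 9.06 FPKM) did not overlap the 2 ΔRRE livers (15.5 and 16.0 FPKM). At that time the same was so for 3 of 5 members and 32.7% of genes, in either direction. *Klf3* also did not overlap at CT14, CT18 and CT22, where 28.4%, 31.2% and 37.1% of genes did not. With 2 livers against 2, an exact test at a single time cannot go below p = 0.333. Without the 4 livers of CT10 the WT wave had an amplitude of only 0.08 (adjusted p = 0.840), too small to place a peak, and that of ΔRRE was 0.32 with a peak at CT13.1. The limma p of the difference rose from 0.00266 to 0.0953. With any 1 library left out this unadjusted p lay between 4.10e-04 and 0.00893, and the adjusted p stayed at 0.999 or above.

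**Figure D3:**
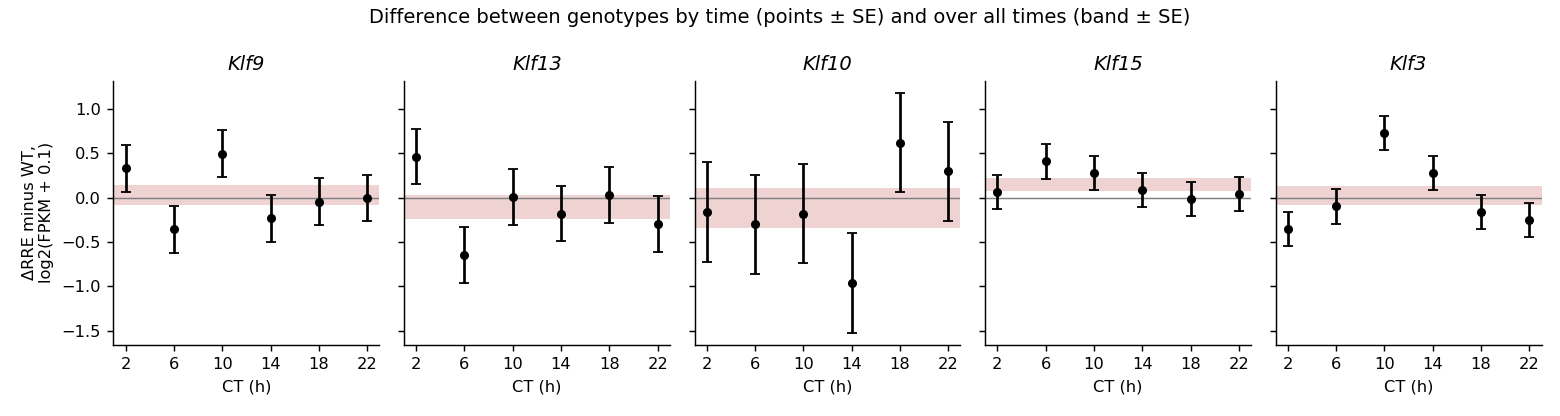
ΔRRE minus WT on the log2(FPKM + 0.1) scale (vertical axis) at each circadian time in hours (horizontal axis), as points ± SE, with the difference over all times ± SE as a band, for each gene. The point of *Klf3* at CT10 is at 0.72, and the bands run near 0, with that of *Klf15* highest at 0.15.

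Over all times, ΔRRE minus WT was 0.15 ± 0.08 for *Klf15* (exact permutation p = 0.0712), 0.03 ± 0.11 for *Klf9* (exact permutation p = 0.805), 0.02 ± 0.11 for *Klf3* (exact permutation p = 0.843), -0.10 ± 0.13 for *Klf13* (exact permutation p = 0.498) and -0.12 ± 0.23 for *Klf10* (exact permutation p = 0.634). For *Klf15* the means at 5 of 6 times were higher in ΔRRE, by as much as 0.41 ± 0.19 at CT6, and that at CT18 was not. The differences in amplitude of *Klf9* and *Klf13* were 0.07 ± 0.25 and -0.08 ± 0.22, with exact permutation p = 0.920 and 0.901 for the whole wave. The SEs bound these differences only loosely, and for all but *Klf15* they were larger than the median absolute level difference of all genes (0.08).

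The 5 members are part of a family of which most were low in liver. Of the other 12 KLF genes looked at, 6 had a mean of at least 1 FPKM and were tested, and the means of all 12 were below those of *Klf3*, *Klf9*, *Klf13* and *Klf15*. *Klf12* was the highest of them at 4.14 FPKM, above *Klf10*, followed by *Klf1* at 2.30 and *Klf2* at 2.03 FPKM. The joint test called 2 of the 6 as rhythmic (18.7% of all genes). *Klf12*, a repressor through the CTBP proteins like KLF3, peaked at CT1.9 ± 0.8 h with a shared amplitude of 0.49 ± 0.10 (adjusted p = 0.00985). *Klf1*, the activator of the globin genes in red cell precursors, peaked at CT9.5 ± 0.7 h with 0.72 ± 0.14 (adjusted p = 0.00765). Of the 5 erythroid markers the same test called 0. The looser criteria of the study were met by 5 of them in WT and 4 in ΔRRE (37.0% and 35.4% of all genes). The part of red cell precursors in the *Klf1* wave was not tested. By genotype 0 of the 6 other KLF genes were called in WT and 1, *Klf1*, in ΔRRE (adjusted p = 0.0349), against 10.3% and 4.57% of all genes. The median shared amplitude of the 6 was 0.48, near the 0.50 of the 5 members, against 0.17 for all genes. None differed between genotypes past the adjustment.

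**Figure D4:**
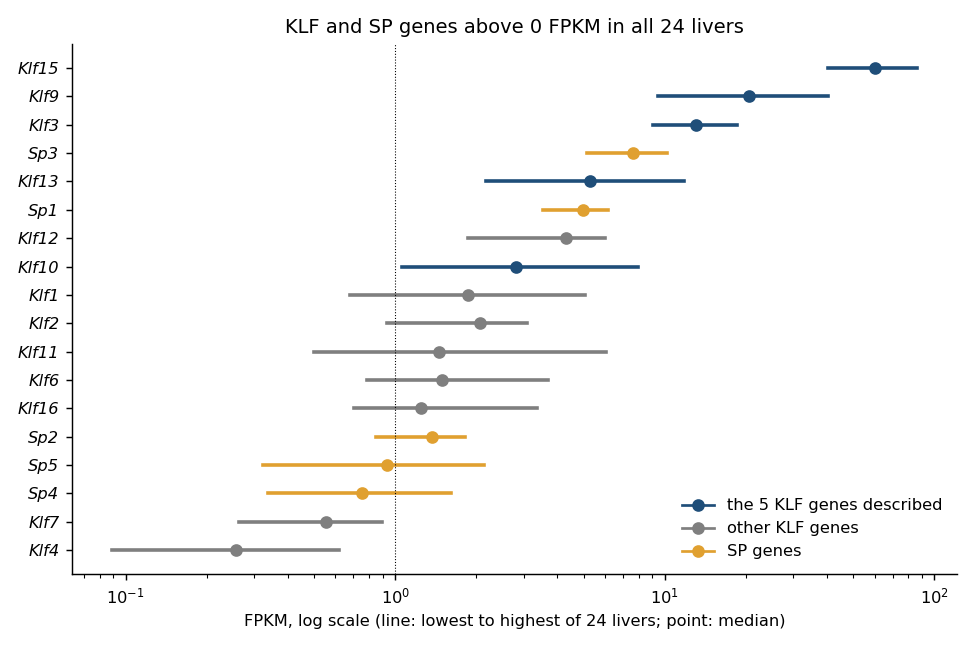
FPKM on a log axis for the KLF and SP genes above 0 in all 24 livers, with a line from the lowest to the highest liver and a point at the median; the dotted line is at 1 FPKM. *Klf15*, *Klf9* and *Klf3* are the highest, and the SP gene *Sp3* (median 7.65 FPKM) lies above *Klf13* (5.26 FPKM).

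Of the 9 SP genes, which bind the same GC boxes, 3 were tested and 0 were called by the joint test (18.7% of all genes). *Sp3* was the highest at 7.74 FPKM, then *Sp1* at 4.92 and *Sp2* at 1.37 FPKM, with shared amplitudes of 0.11 ± 0.05, 0.20 ± 0.05 and 0.15 ± 0.08. *Sp1* missed the threshold at adjusted p = 0.0518. Between the highest and the lowest liver *Sp1* varied 1.74-fold, *Sp3* 2.00-fold and *Sp2* 2.15-fold. The range of *Klf3* (2.05-fold) and *Klf15* (2.14-fold) was much the same, and that of *Klf9* (4.25-fold), *Klf13* (5.42-fold) and *Klf10* (7.51-fold) was wider. The co-repressors that KLFs recruit were also shallow, with 7 of 8 tested, 0 called by an adjusted p in any test and a median shared amplitude of 0.09. By the looser criteria of the study 1 was called in WT, *Sap30*, and 1 in ΔRRE, *Sin3b* (37.0% and 35.4% of all genes).

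Among 6 genes of the glucocorticoid response (the receptor *Nr3c1* and 5 of its targets), 3 were called by the joint test and the same number in each genotype alone. Of all genes 18.7% were called by the joint test, 10.3% in WT and 4.57% in ΔRRE. The 3 called were *Per1* (peak at CT13.5 ± 0.4 h), *Fkbp5* (CT14.3 ± 0.5 h), an inhibitor of the receptor, and *Tsc22d3* (CT17.2 ± 0.5 h), with amplitudes of 1.84 ± 0.17, 1.24 ± 0.15 and 0.87 ± 0.12. *Per1* is also a core clock gene. All 3 fitted peaks were later than that of *Klf9*, whose wave missed the joint threshold (adjusted p = 0.0673) and whose profile was not a simple wave. A part of glucocorticoids in the *Klf9* profile was not tested. Of 6 genes known as targets of KLF15 in amino acid breakdown and gluconeogenesis, the joint test called 1, near the 18.7% of all genes. It was *Tat*, the tyrosine-degrading enzyme, at CT15.6 ± 1.0 h with 0.54 ± 0.14 (adjusted p = 0.0124). The other 5 were *Gpt*, *Prodh*, *Otc*, *Bcat2* and *Pck1*. None of these 12 genes differed between genotypes past the adjustment.

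The genes most like each member were those with the highest Pearson r over the 24 libraries, given as a description: the points share time of day, and no test was made. For *Klf13* they were *Ciart* (r = 0.94), a clock output and repressor of CLOCK and BMAL1, *Coq10b* (0.93) and *Per3* (0.90). The r of *Klf13* with *Per1* was 0.90. For *Klf9* they were *Ireb2* (0.89), which encodes an iron-responsive regulator of mRNA, *Adcy9* (0.88), an adenylyl cyclase, and *Mtx3* (0.88). For *Klf10* they were *Dazap1* (0.84), *Cyp2c23* (0.79) and *Akr1c12* (0.78). For *Klf15* they were *Pim3* (0.79), a kinase, *Ppat* (0.78), the first enzyme of purine synthesis, and *Bcl2l11* (0.77). For *Klf3* they were *Nt5dc3* (0.77), *Tat* (0.75) and *Syncrip* (0.70).

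Once the group means were taken out, so that only the difference between the 2 livers of a group was left, the r of the leading gene was 0.60 for *Klf13*, 0.72 for *Klf9*, 0.76 for *Klf10*, 0.50 for *Klf15* and 0.65 for *Klf3*. These genes had been picked by an r that includes those differences. Among the 5 members themselves the highest r were between *Klf10* and *Klf13* (0.62) and between *Klf13* and *Klf15* (0.61), which were 0.005 and 0.08 without the group means. For *Klf9* and *Klf13*, whose peaks lie apart, the order was the opposite, 0.09 over the libraries and 0.55 without the group means.

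Other annotated genes overlap 3 of the 5. *Gm20033* on the opposite strand shares 404 exon bases with *Klf3* and had a mean of 0.386 FPKM, the gene model *C230096K16Rik* (0.317 FPKM, r = -0.24 with *Klf3*) lies within *Klf3* on the same strand with 0 shared exon bases, and the microRNA gene *Mir1192* (0.212 FPKM) lies within *Klf9* on the same strand, outside its exons. Within *Klf13*, on the opposite strand and with 0 shared exon bases, lie *Gm27252* (1.85 FPKM, r = 0.82 with *Klf13* over the 24 libraries) and *E030018B13Rik* (1.28 FPKM, r = 0.52). The libraries were directional, but the strand setting of the quantification is not given in the sources used here, so reads of these partners cannot be told apart with certainty.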

How the data were processed

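Poly(A) RNA of 24 livers was sequenced from directional libraries. The submitters' processing notes name Trimmomatic 0.39, HISAT2 2.1.0, StringTie 1.3.5 and the build mm10, without their roles. The authors deposited FPKM per gene and library, replicates not pooled. No counts were used, so the depth behind a value is unknown; totals ran from 554170 to 624746 FPKM. A joined table of the same values was not used.

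Groups follow the labels. The labels do not say that the 2 samples of a group are separate animals, so p-values measure the spread between these samples. Models were fitted with limma 3.58.1 (R 4.3.3, variance trend) to log2(FPKM + 0.1) of 11244 genes (mean over the libraries 1 FPKM or more), with Benjamini-Hochberg adjustment over all of them. Waves used a cosine and sine of 24 h. Differences between genotypes in single genes were also tested by two-sided exact permutation. BIO_CYCLE, the study's program, was not run. Steps were tested on simulated data. The members, gene lists and tests were chosen with earlier results of these data known. Named are the 5 members, genes of the lists other than the cell type markers with an adjusted p under 0.05 (or the highest 3 KLF and SP genes), 4 clock genes and the 3 genes most like each member. Cell type markers called by the joint test were not all named. The other target genes of KLF15, *Sap30* and *Sin3b*, the overlapping genes, *Nr3c1*, *Alas2* and *Klf2* are named for completeness. The alternatives for CT10 and for the 2 livers highest in erythroid markers were chosen after the values were seen. Alternatives were other constants, filters, scaling, priors, a replicate term, free time points and left-out libraries.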

Additional observations from a re-analysis of the deposited data

Results flagged for a closer look

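The rhythm of *Klf3* differed between WT and ΔRRE by a test of the difference itself, with an exact permutation p = 0.006087 over 23328 divisions of the livers. The fitted peaks were at CT20.8 ± 1.7 h in WT and CT12.9 ± 0.8 h in ΔRRE, but the WT wave was not called (adjusted p = 0.304). At CT10 both ΔRRE livers were above both WT livers, and at that time the genotypes did not overlap for 3 of 5 members and 32.7% of genes. Without the CT10 livers the WT amplitude was 0.08 and the limma p of the difference was 0.0953. The exact test of the *Klf3* rhythm was 1 of 10 made on the 5 members (rhythm and level). With adjustment over all 11244 genes the limma test of the same difference did not pass (adjusted p = 0.99993). With 2 livers per group, no group was large enough to be searched for single outlying livers.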

How the results depend on the processing

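By adjusted p, the count of members called in WT was 2 and became 1 with a mean of at least 5 FPKM (which removes *Klf10* from the test), 1 without a filter and 1 when each time had its own mean. The count in ΔRRE was 3 and became 0 without a filter (11244 genes were tested with it, and the adjustment is over more without) and 1 with a prior without trend; the cause of the latter was not tested. The joint count was 4 and became 2 when each time had its own mean, *Klf9* and *Klf13*, and 3 without a filter. With a mean for each time the ΔRRE calls were *Klf9* and *Klf13*, those of *Klf3* and *Klf15* being lost. Leaving out each library in turn gave between 1 and 2 members in WT, between 1 and 3 in ΔRRE, between 3 and 5 in the joint test and, by the study's criteria, between 4 and 5 in either genotype. Counts by the study's criteria and counts of differences (0) kept within 1.5 times under the other alternatives. Rescaling by the median of ratios turned the level difference from 0.02 to -0.0179 for *Klf3* and from 0.03 to -0.00909 for *Klf9*, both far from the threshold, and it ended the ΔRRE call of *Klf3* (adjusted p = 0.0523). Left-out libraries turned values near 0 as well: the level difference ran from -0.0273 to 0.0667 for *Klf3* and from -0.0235 to 0.101 for *Klf9*, and the amplitude difference from -0.163 to 0.0326 for *Klf13* and from -0.0115 to 0.178 for *Klf9*. The fits that leave 1 liver in a group take its spread from the other groups. With a replicate block the counts were 2 in WT, 3 in ΔRRE, 4 in the joint test and 0 for differences, and the *Klf13* amplitude in WT was 0.93. Without the 2 livers highest in erythroid markers, chosen after the data were seen, the level difference was -0.0210 for *Klf3* and the amplitude difference -0.00616 for *Klf9*, and no member was called in ΔRRE. The labels do not say whether the replicate numbers pair the livers. Over the 66 pairs of groups, the differences between replicate 1 and 2 correlated across genes with a median r of 0.067 (from -0.138 to 0.305), over 0.1 in 20 pairs. These values cannot decide whether some livers were paired. The higher level of *Klf3* in ΔRRE at CT10, examined after the data were seen, stayed between 0.66 and 0.79 without any 1 library. The 2 livers per group and the unknown read depth limit the test of small waves such as those of *Klf3* and *Klf15*.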
